A study of Rattus norvegicus with 6 samples.

Results

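Antimicrobial proteins of Paneth cells and of the intestinal surface epithelium were followed in rat jejunum after heat and shaking. The genes were Reg3a, Reg3b, Reg3g, Lcn2, Lyz2, Defa5, Pla2g2a and Mmp7. Every probe whose RefSeq accession belongs to 1 of these genes was taken, which gave 8 probes, 1 for each gene, of 41012 probes on the array. Named probes covered 13837 gene symbols in all. Male Sprague-Dawley rats of 6 weeks and about 200 g were first kept at 25°C. The S3d group was then exposed for 2 h on each of 3 days to 35°C with shaking at 0.1 × g, and the control group was not. Each group had 3 samples, each on its own 1-colour Agilent array, and each sample was a pool of total RNA from 3 rats. The labels give 10 rats per group and the study's methods give 6, so whether pools shared animals is not known, and p-values measure only the spread between pools. The labels name no allele and no other agent.

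Paneth cells sit at the base of the small intestinal crypts and secrete granules that hold lysozyme, defensins, phospholipase and the protease that processes defensin precursors. Enterocytes add lectins of the Reg3 family, which bind the peptidoglycan or surface of bacteria and keep them away from the villi. Many of these genes are switched on by interleukin-22, interleukin-17, Toll-like receptors and the transcription factors STAT3, NF-kappaB and C/EBP. The same Reg3 lectins are also made by acinar cells of the injured pancreas, where they were named pancreatitis-associated proteins.

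The 3 Reg3 genes lie in 1 cluster on rat chromosome 4, in the order Reg3b, Reg3a, Reg1a and Reg3g, with no other protein-coding gene between them in the RefSeq annotation of GRCr8. Their promoters are shown because these neighbours gave different values on the arrays. Each sequence holds the 120 bases just before the annotated start, 5′ to 3′ on the strand of the gene, taken from RefSeq on build GRCr8, at chr4:112430277-112430396 (plus strand) for Reg3a, chr4:112419656-112419775 (plus strand) for Reg3b and chr4:112484739-112484858 (minus strand) for Reg3g. Capitals mark TATAAA, the core of a TATA box, and the longest run of bases that all 3 share.
Reg3a: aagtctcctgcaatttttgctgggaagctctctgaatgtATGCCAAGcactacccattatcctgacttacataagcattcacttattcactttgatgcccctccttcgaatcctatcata
Reg3b: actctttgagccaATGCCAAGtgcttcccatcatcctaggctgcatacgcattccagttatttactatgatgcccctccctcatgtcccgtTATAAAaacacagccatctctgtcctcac
Reg3g: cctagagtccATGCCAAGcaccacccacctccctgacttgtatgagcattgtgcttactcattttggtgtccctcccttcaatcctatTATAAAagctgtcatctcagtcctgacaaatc

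The shared run of 8 bases began between 81 bases (Reg3a) and 110 bases (Reg3g) before the start, and it occurs on either strand in 491 of 33465 rat promoter windows. TATAAA began 29 bases before the start in Reg3b and 32 in Reg3g, and was not among the letters of the Reg3a window. Over the 250 bases before the start, Reg3b and Reg3g were identical in 63.5% of aligned positions, Reg3a and Reg3g in 53.7%, and Reg3a and Reg3b in 52.1%. For comparison, Lcn2, which is no relative, reached 44.4% to 46.3% against the 3 of them.
Promoter windows of 300 bases, 250 before and 50 after the start, were given for 7 of the 8 genes, all except Defa5, and both strands were searched for 7 motifs. TATAAA was found in Reg3b, Reg3g and Mmp7, against 14.2% of all windows. TTTATG, the core bound by the intestinal factor CDX2, was found in Reg3a, Reg3b, Lcn2, Pla2g2a and Mmp7 (12.7% of all windows). The C/EBP motif TTGCNNAA was found in Reg3a, Lcn2, Lyz2 and Mmp7 (10.6%), and the STAT motif TTCNNNGAA in Reg3b (8.87%), 129 bases before its start. The heat shock element GAANNTTC was found in Reg3g and Pla2g2a (8.59%). The NF-kappaB motif (GGGA, any base, TT, any base, CC; 1.11% of all windows) and the glucocorticoid response element (GNACA, any 3 bases, TGTNC; 0.439%) were not among the letters of any of the 7 windows. The searched motifs were read only as letters, and no binding was measured.

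Every level below is a log2 processed signal from which the 75th percentile of its own array was subtracted, so 75% of the spots lie under 0. A probe was called at an adjusted p under 0.05 in limma, with Benjamini-Hochberg adjustment over 31371 tested probes, and log2 fold changes are S3d minus control. The control arrays lay on 1 slide and the S3d arrays on another, scanned 450 days apart, and slide and group cannot be told apart. The authors also deposited a normalized log2 table, and each of its 6 columns followed a scanner file of the opposite group, the one with its replicate number (rank correlation 1 after rounding, against 0.942 to 0.952 with the file of its own sample). The group labels of the 2 sources are therefore exchanged, so every direction here rests on the labels of the scanner files and turns with those of the table. S3d array 1 stood apart by a pancreatic signal. The summed level of 13 pancreatic acinar markers was 2650 times the 75th percentile on that array, against 1.4 to 1.87 on the control arrays and 2.21 and 3.55 on S3d arrays 2 and 3. Of all tested probes, 74% were called, 39.5% as higher and 34.5% as lower, and the groups did not overlap for 78.3%. Under this scaling bright probes were mostly lower in S3d. The median log2 fold change was -0.94 for the 508 probes with a mean above 6 and -0.41 for the 2419 probes between 3 and 6, against 0.08 over all tested probes. Dim probes leaned the other way. The median was 2.13 at or below -6, with 88.8% called higher, and 0.42 between -6 and -3, with 47.2% called higher. Under quantile normalization the median was -0.02 in both bright ranges, 1.57 at or below -6 and 0.01 between -6 and -3. The jejunal enterocyte markers Apoa4, Fabp1 and Alpi were at 6.80 or more on every array, and the Paneth cell defensins Defa6 and Defa24 at 5.83 or more.

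Of the 8 genes, 7 were well above background on all 6 arrays and were tested, and 5 were called, all of them lower on the arrays labelled S3d. These were Reg3b, Reg3g, Lcn2, Pla2g2a and Mmp7. Lcn2 and Mmp7 belong to the genes that the study itself listed from these samples, there as higher in the stressed group, and its real-time PCR also had Lcn2 higher after stress. Both have the opposite sign to that given by the scanner labels and the same sign as the labels of the deposited table. The share called, 71.4% of the tested members, was near the 74% of all tested probes. The direction differed more, since 34.5% of all tested probes were called lower. However, 61.5% of probes between 3 and 6 and 87.6% of probes above 6 were called lower as well. Under quantile normalization 4 of the 7 members were called lower and 1 higher. The shares called lower were then 35.6% of all tested probes, 38.1% of those between 3 and 6 and 36.6% of those above 6. Under the scaling of the levels given here, the median log2 fold change of the 7 members was -1.69. Lyz2 and Reg3a were not called, and Defa5 was not well above background on any array. Without S3d array 1, 4 members were called lower (Reg3g lost its call) and Reg3a was called higher, against 72.7% of all tested probes called in either direction and 34% called lower. Less RNA per cell and fewer cells that make it cannot be told apart in bulk tissue.

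**Figure D1:**
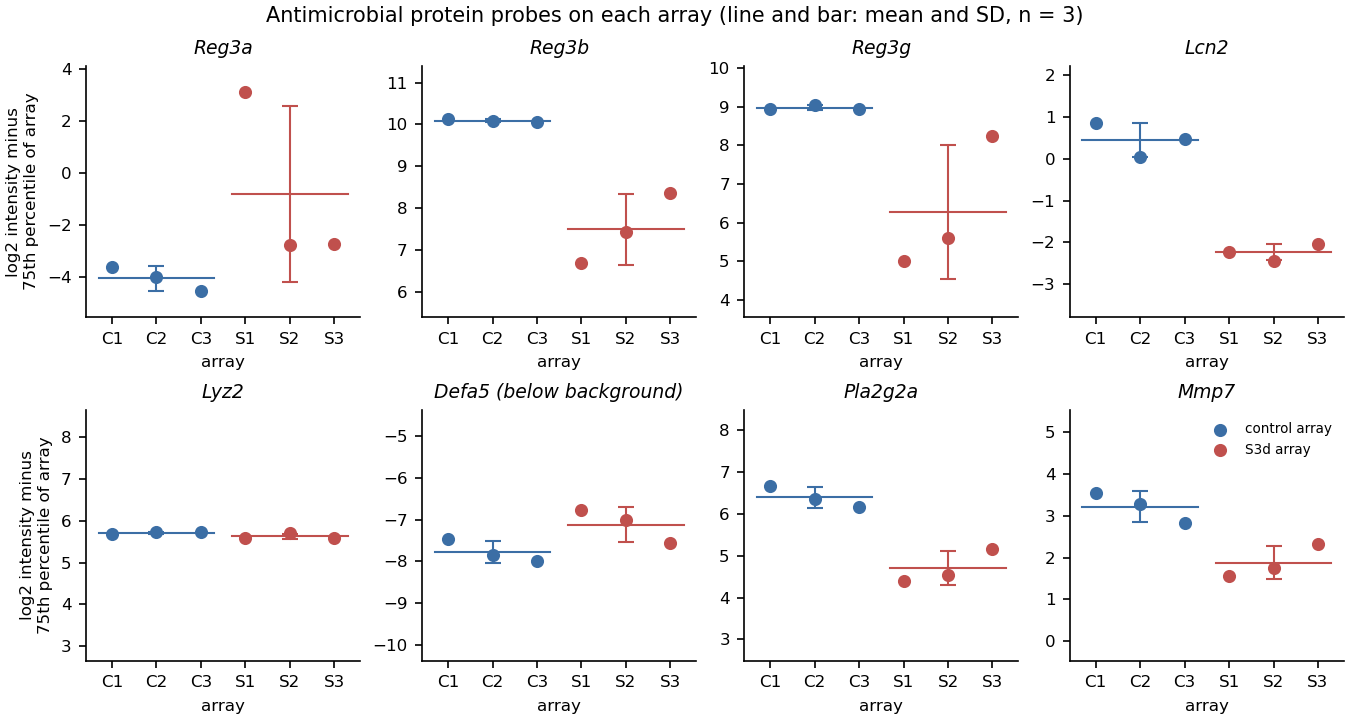
Log2 intensity minus the 75th percentile of the array for each of the 8 genes on the 3 control arrays (blue, C1 to C3) and the 3 S3d arrays (red, S1 to S3). Lines and bars give the mean and SD of 3 arrays, every panel has its own range, and Reg3a reached 3.12 on S3d array 1 against -2.77 and -2.74 on the other S3d arrays.

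Reg3b, the lectin also known as pancreatitis-associated protein I, was at 10.14, 10.08 and 10.06 on control arrays 1, 2 and 3 and at 6.68, 7.43 and 8.37 on S3d arrays 1, 2 and 3. All S3d arrays were lower than all control arrays, and they were spread over a 3.22-fold range, against 1.06-fold among the controls. This was a log2 fold change of -2.60 (SE 0.404, 95% interval -3.59 to -1.61, adjusted p = 0.00155), or 6.06-fold lower. Under quantile normalization it was -1.36 and still called (adjusted p = 0.0441), without scaling between arrays it was -0.75 and not called (adjusted p = 0.128), and in the deposited table, by that table's labels, it was 1.30 (adjusted p = 0.057). The median signal of its spot reached 82.3% to 86.6% of the scanner's saturation value on the control arrays and 86.7% on S3d array 3, with no saturation flag.

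Reg3g, the lectin that kills Gram-positive bacteria, was at 8.94, 9.05 and 8.94 on the control arrays and at 5.0, 5.59 and 8.25 on S3d arrays 1, 2 and 3. The groups did not overlap, but S3d array 3 lay close to the controls and far above the remaining S3d arrays. That range was 9.50-fold within S3d and 1.08-fold within control. Ranges of over 2 log2 units within S3d occurred in 275 of the 31371 tested probes (0.883%). The log2 fold change was -2.70 (SE 0.821, 95% interval -4.71 to -0.69, adjusted p = 0.0244). The call depended on single arrays and on the processing. It was lost without control array 1 (adjusted p = 0.0603), 2 (adjusted p = 0.0644) or 3 (adjusted p = 0.0602), without S3d array 1 (adjusted p = 0.0583) or 2 (adjusted p = 0.0752), and under quantile normalization (log2 fold change -1.64, adjusted p = 0.164). Without S3d array 3 the fold change was -3.69. Before scaling, the median signal of the Reg3g spot was 76.8% of the scanner's saturation value on that array, with no saturation flag. On the control arrays it was 33.9% to 38%, so the unscaled signal of S3d array 3 lay above the controls. Reg3b and Reg3g had the same order of the S3d arrays, with array 1 lowest and array 3 highest.

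Reg3a, the lectin whose gene lies between Reg3b and Reg3g, was at -3.62, -4.01 and -4.56 on the control arrays and at 3.12, -2.77 and -2.74 on S3d arrays 1, 2 and 3. All S3d arrays were above all control arrays, and S3d array 1 was 59.4-fold above S3d array 2 and 58.3-fold above S3d array 3. The log2 fold change of 3.27 (SE 1.62, 95% interval -0.71 to 7.24) was not called (adjusted p = 0.114). Without S3d array 1 it was 1.31 and called (adjusted p = 0.00932), and without scaling between arrays it was 5.11 and called (adjusted p = 0.0188). In the deposited table it was -3.07 and not called (adjusted p = 0.155).

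The gap of Reg3a on S3d array 1, 5.86 log2 units above the higher of the other S3d arrays, was reached by 32 tested probes. Of these, 22 had a gene symbol, and 10 genes of the pancreatic acinar list were among them. Cpb1, the pancreatic carboxypeptidase, was at 8.42 on S3d array 1 and at -5.68 and -6.21 on the other S3d arrays, and was not well above background on any control array. Ctrb1, the precursor of chymotrypsin, was at 8.91 on that array and between -0.45 and 0.10 on the other arrays. The genes whose 6 values were most like those of Reg3a, by the root mean square difference after centring on the mean, were Pnliprp2 (0.58), a pancreatic lipase-related protein, Rnase1l1 (0.58), a ribonuclease, and Ppy (0.69), the islet hormone pancreatic polypeptide. None of the 10 acinar genes tested was called with all 6 arrays in limma, where 0 had an unadjusted p under 0.05, or in the analysis of variance of the methods. Without S3d array 1, 6 of these 10 were called higher and 1 lower, against 72.7% of all tested probes called in either direction. Of those higher, Pnlip and Amy2a3 had entered the test through the S3d arrays alone, which fixed their direction. The part of this pancreatic signal in the value of Reg3a on S3d array 1 was not tested. Reg3b and Reg3g, in contrast, were at their lowest on that array.

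**Figure D2:**
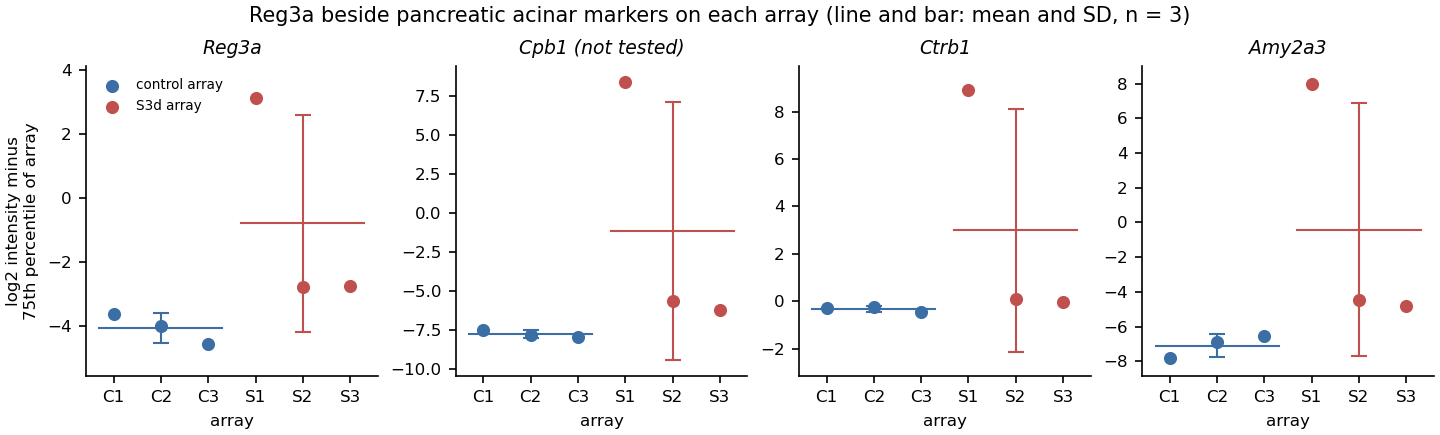
Reg3a beside the pancreatic acinar genes Cpb1, Ctrb1 and Amy2a3 on each array, as log2 intensity minus the 75th percentile, with the mean and SD of 3 arrays per group. All 4 were highest on S3d array 1, where Reg3a was at 3.12, Cpb1 at 8.42, Ctrb1 at 8.91 and Amy2a3 at 8.0.

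Reg1a, the remaining lectin of the cluster, was at 6.75, 6.22 and 6.09 on the control arrays and at 6.07, 4.58 and 5.71 on the S3d arrays. Its highest S3d value, on array 1, lay just under the lowest control value. The log2 fold change of -0.90 was not called (adjusted p = 0.0886), and it was -1.21 and called without S3d array 1 (adjusted p = 0.0376). Under quantile normalization it was -0.26 and not called (adjusted p = 0.597). With each array centred on its median it was -1.10 and called (adjusted p = 0.0497).

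Lcn2, which encodes lipocalin 2, a secreted protein that withholds iron from bacteria by binding their siderophores, was at 0.86, 0.04 and 0.47 on the control arrays and at -2.22, -2.44 and -2.05 on the S3d arrays. The groups were far apart, and the S3d arrays lay within a 1.31-fold range, tighter than the 1.77-fold range of the controls. Lcn2 thus had a log2 fold change of -2.69 (SE 0.222, 95% interval -3.23 to -2.14, adjusted p = 0.00011), or 6.44-fold lower. Lcn2 was called under every scaling, background correction, filter and test that was run and with any 1 array left out, with the sign turned in the deposited table (2.75). Under normexp background correction scaled to the 75th percentile, which called 5.58% of all tested probes, it was the member that was still called (log2 fold change -2.42, adjusted p = 0.0182).

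Lyz2, the lysozyme that cleaves bacterial peptidoglycan, was at 5.68, 5.73 and 5.72 on the control arrays and at 5.59, 5.70 and 5.59 on the S3d arrays. The groups overlapped, and all 6 arrays were nearly level. The difference was -0.08 on the log2 scale (SE 0.0639, 95% interval -0.24 to 0.07, adjusted p = 0.274). Its direction depended on the scaling. It was 0.52 and called under quantile normalization (adjusted p = 0.00235), 0.50 and called under normexp with quantile normalization (adjusted p = 0.000189), 0.47 and not called under normexp with the 75th percentile (adjusted p = 0.408), -0.29 and called with each array centred on its median (adjusted p = 0.00645), and 1.76 without scaling. Lyz2 is also made by macrophages, whose markers are given below.

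Pla2g2a, the secreted phospholipase that attacks the membranes of Gram-positive bacteria, was at 6.67, 6.35 and 6.18 on the control arrays and at 4.41, 4.55 and 5.16 on the S3d arrays. The groups did not overlap, and the ranges were 1.40-fold within control and 1.69-fold within S3d. Pla2g2a changed by -1.69 on the log2 scale (SE 0.229, 95% interval -2.25 to -1.13, adjusted p = 0.000864), or 3.22-fold lower, and -1.13 under quantile normalization. Without scaling between arrays the sign turned and the difference was not called (0.16, adjusted p = 0.54). Probes between 3 and 6 had a median log2 fold change of -0.41 with quartiles of -0.86 and 0.06, so that Pla2g2a lay below that quartile range and Lyz2, of similar brightness, inside it.

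Mmp7, the protease matrilysin that cuts defensin precursors into their active form in the mouse, was at 3.54, 3.29 and 2.82 on the control arrays and at 1.56, 1.75 and 2.32 on the S3d arrays. The groups did not overlap, and the gap between the lowest control and the highest S3d array was smaller than the range within each group. Mmp7 changed by -1.34 on the log2 scale (SE 0.262, 95% interval -1.98 to -0.70, adjusted p = 0.00419), or 2.53-fold lower, and -1.15 under quantile normalization. Without scaling between arrays it was 0.51 and not called (adjusted p = 0.112).

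Defa5, an alpha-defensin that the annotation also lists as ratNP-1 and ratNP-2, was at -7.47, -7.85 and -8.0 on the control arrays and at -6.78, -7.00 and -7.57 on the S3d arrays. None of these spots was well above background, so its values are bounds and give no direction. Other alpha-defensins were bright on every array, as described with the other defence genes.

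The 5 members called lower had the same S3d array on top. On S3d array 3 each of Reg3b, Reg3g, Lcn2, Pla2g2a and Mmp7 had its highest S3d value, and on control array 1 each except Reg3g had its highest control value. The size of the spread differed between them. Within S3d it was 1.31-fold for Lcn2, 1.69-fold for Pla2g2a, 1.70-fold for Mmp7, 3.22-fold for Reg3b and 9.50-fold for Reg3g. Within control it was 1.06-fold for Reg3b, 1.08-fold for Reg3g and between 1.40-fold and 1.77-fold for the others.

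**Figure D3:**
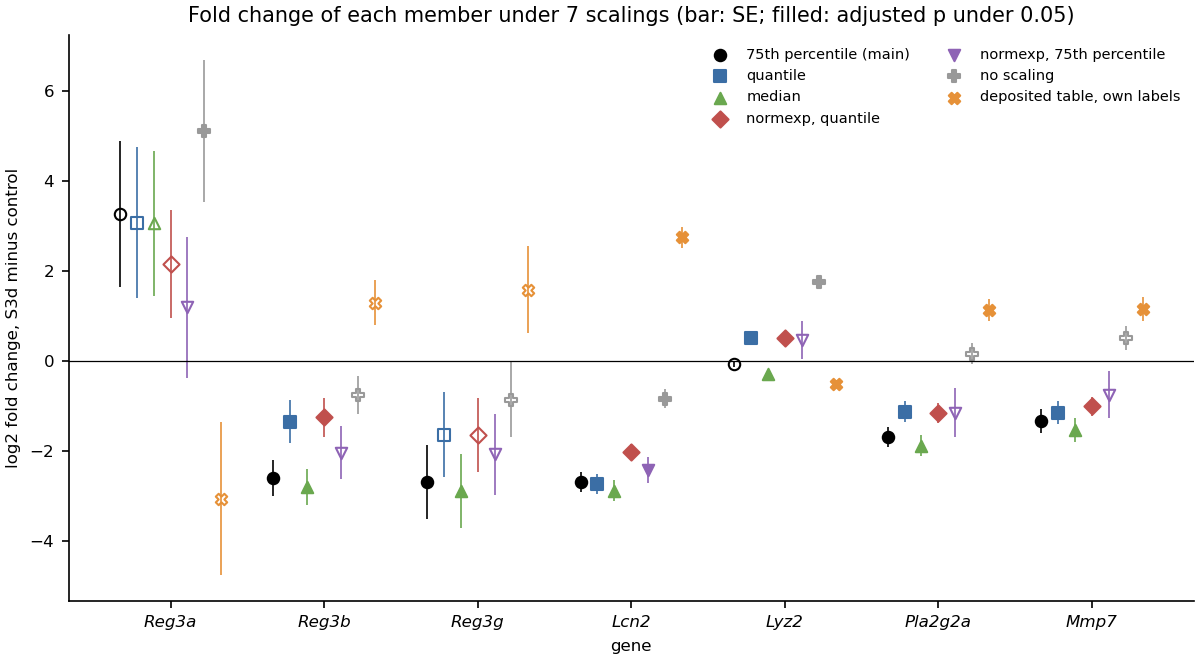
Log2 fold change (S3d minus control) of the 7 tested members under 7 scalings, with the standard error as bars, filled symbols for an adjusted p under 0.05 and open symbols for others. Lcn2 is filled throughout and lies between -2.89 and -2.02 in the 5 scaled versions of the scanner data, Lyz2 lies on both sides of 0, and the deposited table turns the sign of each member except Lyz2.

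Across 5 ways of scaling the scanner data (75th percentile, quantile, median, normexp with quantile, and normexp with the 75th percentile), Reg3b, Reg3g, Lcn2, Pla2g2a and Mmp7 kept a negative sign and Reg3a a positive one, and Lyz2 changed sign. The share of all tested probes called was 74%, 70.6%, 74%, 69.9% and 5.58% in that order, and 96% without scaling and 70.1% in the deposited table. Lcn2 was called in 5 of these 5 scalings, Reg3b, Pla2g2a and Mmp7 in 4, Reg3g in 2 and Reg3a in none. The exception for Reg3b, Pla2g2a and Mmp7 was normexp with the 75th percentile, an alternative chosen after seeing the data. Without any scaling the median of all tested probes was 1.93, and the 5 called members lay between -0.86 and 0.51, below that median.

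**Figure D4:**
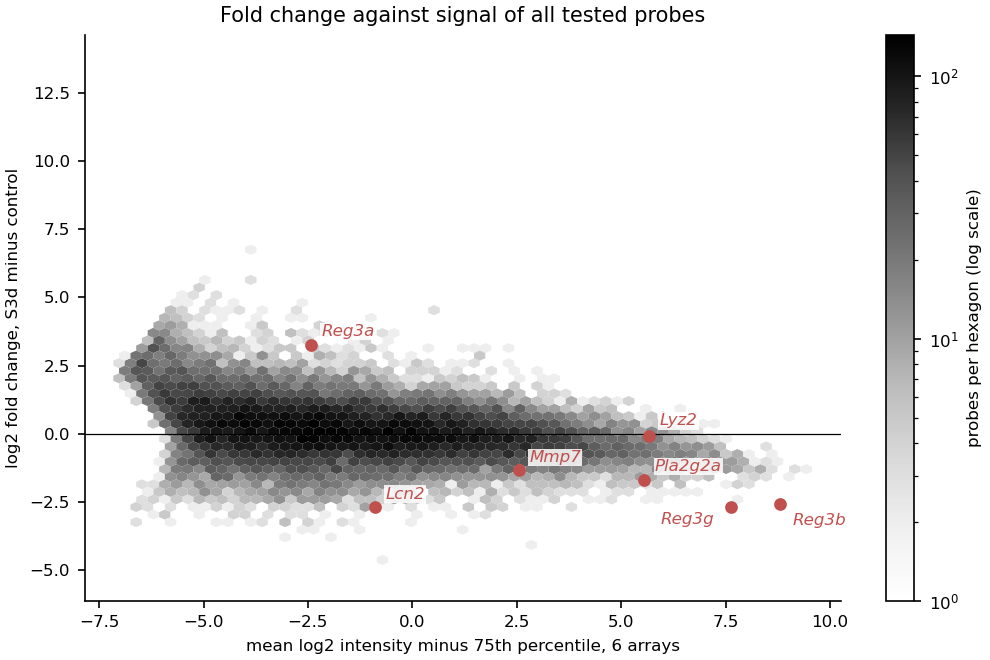
Log2 fold change (S3d minus control) against the mean log2 intensity minus the 75th percentile over 6 arrays for the 31371 tested probes, as hexagons shaded by the number of probes on a log scale, with the 7 tested members in red. The cloud bends down at the bright end, where the median was -0.94 for probes above 6, and Reg3b and Reg3g lie below the cloud there at -2.60 and -2.70.

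Other antimicrobial and mucosal defence proteins were described from a list of 37 genes, of which 23 had a probe, 19 were tested and 16 were well above background on all 6 arrays. Of the 19, 11 were lower and 3 higher on the arrays labelled S3d and 5 were not called. Their median log2 fold change was -0.90. Of those higher, Bpi and S100a8 had entered the test through the S3d arrays alone. When the filter kept only the 16 genes, 11 were lower and 1 higher. The share of the 19 that was called, 73.7%, was near the 74% of all tested probes, of which 34.5% were lower and 39.5% higher. Under quantile normalization 8 were lower and 1 higher, with a median of -0.26, while 35.6% of all tested probes were lower and 35% higher. Without scaling between arrays the counts were 12 higher and 1 lower, and in the deposited table, by its own labels, they were 8 and 1. Genes of this list and the next ones that the naming rule did not pick are given as examples chosen after their values were seen.
Nos2, the inducible nitric oxide synthase, was at -2.07, -2.73 and -3.23 on the control arrays and at -5.46, -6.21 and -5.52 on the S3d arrays, a log2 fold change of -3.05 (SE 0.343, adjusted p = 0.000383). S100a9, a subunit of the zinc-binding protein calprotectin, was at -0.11, -0.84 and -1.28 on the control arrays and at -3.09, -3.15 and -2.87 on the S3d arrays, a log2 fold change of -2.29 (SE 0.294, adjusted p = 0.000671). Both groups were clearly apart for these genes, control array 1 was the highest for both, and both were called in 5 of 5 scalings with a negative sign, as Lcn2 was. S100a8, the partner of S100a9 in calprotectin, went the other way. It was not well above background on any control array and was at -4.48, -5.42 and -4.10 on the S3d arrays, at least 3.41-fold higher (adjusted p = 0.00939). It had entered the test through the S3d arrays alone, which fixed its direction, and it was at 0.25 and not called under normexp with quantile normalization and turned sign under normexp with the 75th percentile (-1.60, not called). The bound sets the mean of the S3d arrays against the lowest signal well above background on each control array or the value of the probe, whichever was higher.

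The alpha-defensins of the list, small pore-forming peptides of Paneth cell and neutrophil granules, were lower as well. Defa24 was at 8.07, 8.24 and 8.09 on the control arrays and at 6.92, 7.07 and 6.94 on the S3d arrays, and Defa6 at 7.48, 7.49 and 7.48 against 6.34, 6.18 and 5.83. Neither gene had overlapping groups, and their log2 fold changes were -1.16 (adjusted p = 5.77e-05) and -1.37 (adjusted p = 0.000224). Both depended on the scaling. Under quantile normalization Defa24 was at -0.11 and no longer called (adjusted p = 0.38), and Defa6 was at -0.58 and called (adjusted p = 0.00777). Defa24 was called in 2 of 5 scalings and Defa6 in 4. RatNP-3b (-1.61) and Np4 (-1.76) were called too, and under quantile normalization were at -1.03 and -1.54. Without scaling these 4 defensins lay between 0.09 and 0.69, above 0 but below the median of all tested probes (1.93). Alpha-defensin genes are near-identical copies of one another, and which copies a probe binds was not resolved here. Among secreted epithelial proteins, Zg16, a goblet cell lectin that aggregates Gram-positive bacteria, had a log2 fold change of -1.86 (adjusted p = 1.93e-05) and Reg4, another C-type lectin, of -2.09 (adjusted p = 0.00678), against -0.71 and -1.72 under quantile normalization, where both were called. Pigr, the receptor that carries antibodies across the epithelium, was at -0.67 (adjusted p = 0.00854), Dmbt1, a mucin-like scavenger protein, at -0.88 (adjusted p = 0.00576) and Duox2, the epithelial NADPH oxidase, at -1.06 (adjusted p = 0.0237). Under quantile normalization Pigr was at -0.29 (adjusted p = 0.142) and Dmbt1 at 0.05 (adjusted p = 0.863), neither of them called, and Duox2 was at -0.91 and called (adjusted p = 0.035). Pglyrp1, a peptidoglycan recognition protein, was higher by 0.26 (adjusted p = 0.00928), but was called in no other of the 5 scalings. It was at 0.07 and not called under quantile normalization (adjusted p = 0.356), at 0.06 and not called with each array centred on its median (adjusted p = 0.433), and at -0.91 and not called under normexp with the 75th percentile. Slpi, an antiprotease with antimicrobial activity, was at -0.08 and was not called (adjusted p = 0.675).

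**Figure D5:**
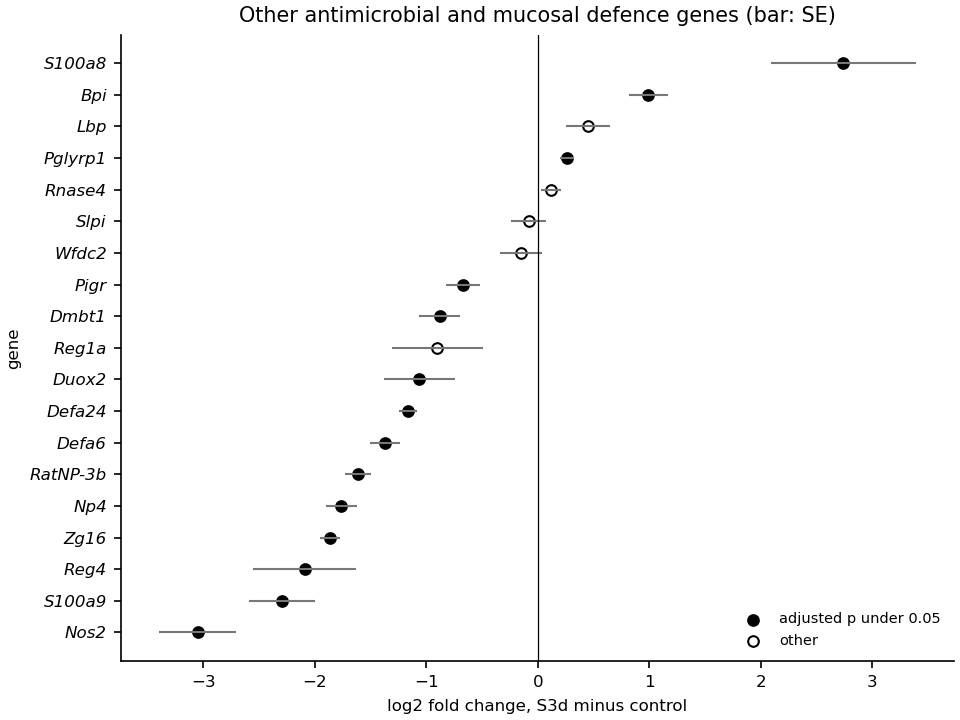
Log2 fold change (S3d minus control) with its standard error for the 19 tested genes of the list of other antimicrobial and mucosal defence proteins, filled where the adjusted p was under 0.05. The 11 genes called lower run from Nos2 at -3.05 to Pigr at -0.67, and the 3 called higher are Pglyrp1, Bpi and S100a8. Of these, Bpi and S100a8 entered the test through the S3d arrays alone.

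Cytokines, receptors and regulators known to induce antimicrobial genes were described from a list of 30 genes, of which 22 were tested. Of these, 12 were lower and 5 higher, with a median log2 fold change of -0.66, and under quantile normalization 13 were lower and 6 higher. The share called, 77.3%, was near the 74% of all tested probes. Il22ra1, the receptor subunit through which interleukin-22 acts on epithelium, was at -2.15, -2.16 and -1.93 on the control arrays and at -2.99, -3.53 and -3.37 on the S3d arrays (log2 fold change -1.21, adjusted p = 0.000656). Il22ra2, the soluble decoy that binds interleukin-22, was at -1.10, -1.31 and -0.97 against 0.01, -0.02 and 0.01 (log2 fold change 1.13, adjusted p = 0.000136). The receptor and its decoy thus differed in opposite directions, and both kept their sign in 5 of 5 scalings. Socs3, a STAT3 target that restrains cytokine signalling, was at 0.22, -0.28 and -0.36 on the control arrays and at -2.26, -2.55 and -2.23 on the S3d arrays (log2 fold change -2.21, adjusted p = 0.000103). Cebpd and Cebpb, transcription factors of the acute phase response, changed by -1.98 (adjusted p = 7.89e-05) and -1.55 (adjusted p = 1.7e-05), and Socs3 and Cebpb were called in 5 of 5 scalings. Il17a, the T cell cytokine interleukin-17A, was at -5.33, -5.18 and -5.84 on the control arrays and was not well above background on any S3d array, at least 2.92-fold lower (adjusted p = 6.63e-05). It had entered the test through the control arrays alone, which fixed its direction.
Among the Toll-like receptors, which recognise bacterial products, Tlr2 changed by -2.11 (adjusted p = 0.000437), Tlr4 by -0.82 (adjusted p = 0.000923) and Tlr5 by -0.85 (adjusted p = 0.00104), while Tlr9, the receptor for bacterial DNA, was higher by 2.69 (adjusted p = 0.000168). Under normexp with the 75th percentile none of these receptors was called, and Tlr9 was at 0.08 (adjusted p = 0.93). Of the inflammatory cytokines, Tnf was higher by 1.25 (adjusted p = 0.0002) at low signal and turned sign under normexp with the 75th percentile (-1.46, not called). Il1b was at -0.04 and was not called (adjusted p = 0.605).

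Genes that specify Paneth cells or form their niche were described from a list of 20, of which 13 were tested. Of these, 6 were lower and 3 higher, with a median log2 fold change of -0.10. Under quantile normalization 5 were lower and 2 higher. The share called, 69.2%, was near the 74% of all tested probes. Spdef, a transcription factor of the secretory lineage, changed by -1.10 (adjusted p = 4.24e-05), and Gfi1, another one, by 0.79 (adjusted p = 0.000231). Kcnn4, a potassium channel of Paneth cells, was at 4.33, 4.20 and 4.28 on the control arrays and at 2.83, 2.85 and 2.92 on the S3d arrays (log2 fold change -1.41, adjusted p = 1.96e-05). Tgfa, a growth factor of the niche, was at 0.41, 0.37 and 0.35 against 1.77, 1.72 and 1.67 (log2 fold change 1.34, adjusted p = 1.77e-05). These 4 genes kept their sign in 5 of 5 scalings. Wnt3, the Paneth cell signal that maintains stem cells, was higher by 0.89 (adjusted p = 0.00324). It was called in 2 of 5 scalings, was at 0.37 and not called under quantile normalization (adjusted p = 0.134) and turned sign under normexp with the 75th percentile (-1.49, not called). Cd24, a surface protein of Paneth cells, changed by -1.14 (adjusted p = 8.13e-05) but was at 0.01 and not called under quantile normalization (adjusted p = 0.894).

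Markers of other cells moved beside the members, and their part in the results was not tested. The summed level of 11 villus enterocyte markers was 3570 to 3990 times the 75th percentile on the control arrays and 1610 to 1660 on the S3d arrays. Of the 11 tested, 7 were lower and 2 higher, but 2 were lower and 5 higher under quantile normalization. The share called was 81.8%, against 74% of all tested probes. With the mean over probes of a gene 8 were lower and 1 higher. Apob was at -0.09 on its brightest probe and at -0.13, -2.70, -2.73 and -2.84 on dimmer ones. Fabp1, a fatty acid carrier, changed by -1.64 (adjusted p = 1.32e-05) and Slc5a1, the sodium-glucose transporter, by -1.57 (adjusted p = 8.69e-05), while Slc2a5, the fructose transporter, was higher by 0.68 (adjusted p = 0.00937) and Lct, the enzyme lactase, by 0.66 (adjusted p = 0.0472). Under quantile normalization these genes, in that order, were at -0.33, -1.24, 0.98 and 0.77, all called. A dimmer Lct probe was at 0.25 and not called (adjusted p = 0.415). The brighter Lct probe lost its call without S3d array 1 (adjusted p = 0.0945). The sum of 3 goblet cell markers was 869 to 919 against 324 to 343. These markers did not move alike. Tff3, the trefoil peptide of goblet cells and the brightest of them, changed by -2.13 (adjusted p = 1.03e-05), or by -0.96 under quantile normalization. Agr2, a chaperone of mucin folding, changed by -0.67 (adjusted p = 0.000804) but was at 0.07 and not called under quantile normalization. Clca1, a secreted mucus protein, was at -0.03 and not called, and at 0.81 and called higher under quantile normalization (adjusted p = 0.00266).
The 11 macrophage markers, of interest for Lyz2, summed to 146 to 155 against 77.8 to 83.8, with 6 of 10 lower and 1 higher on the brightest probe of each gene. The share called, 70%, was near the 74% of all tested probes. With the mean over probes of a gene 5 were lower and 3 higher, and a dimmer probe was called higher for Cd14 (1.15, adjusted p = 0.000748) and Mrc1 (0.81, adjusted p = 0.000188). Csf1r, the receptor for a macrophage growth factor, was higher by 0.87 (adjusted p = 0.000165), and the complement genes C1qb and C1qa changed by -1.16 (adjusted p = 3.42e-05) and -0.80 (adjusted p = 8.09e-05). Under quantile normalization Csf1r was at 0.88, C1qb at -0.51 and C1qa at -0.39, all called. The 8 neutrophil markers with a probe, of interest for Lcn2 and S100a9, were dim, and 1 of them, the granule protease gene Prtn3, was well above background on all 6 arrays. Prtn3 was higher by 1.55 (adjusted p = 8.59e-05) and at -0.45 and not called under normexp with the 75th percentile. Elane and Csf3r entered the test through the S3d arrays and Ngp through the control arrays, so their values in the other group lay at or near background, and Mmp8 was not well above background on any array. The summed level of the 8, which includes spots at background, was 0.179 to 0.201 on the control arrays and 0.289 to 0.366 on the S3d arrays. The 6 smooth muscle markers summed to 122 to 147 against 115 to 135, with 2 higher and 2 lower on the brightest probe. The share called was 66.7%, against 74% of all tested probes. Those higher were the contractile genes Myh11 (0.98, adjusted p = 0.00103) and Smtn (0.30, adjusted p = 0.00991), and a second probe of each was called lower, at -0.92 (adjusted p = 0.000378) and -1.39 (adjusted p = 2.37e-05). Those lower were Des (-1.19, adjusted p = 0.000514) and Tagln (-0.96, adjusted p = 0.000157), and with the mean over probes 1 marker was higher and 3 were lower.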

How the data were processed

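The authors hybridised Cy3-labelled jejunal RNA to 1-colour Agilent arrays and deposited the intensity values of each scan from Agilent Feature Extraction 10.7.3.1 (10.7 in the submitters' processing notes), background-subtracted but not scaled between arrays. They also deposited a table of log2 values that is quantile-normalized, by a program not given in the sources used here. Its sorted columns differ by at most 0.0025, and its median is 6.65.

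From the scanner files, log2 processed signals were scaled to the 75th percentile of each array over spots that were neither controls nor outliers, and repeated spots were averaged. A probe entered limma 3.58.1 (R 4.3.3) if either group had it well above background on each of its 3 arrays, which left out 9641 of 41012 probes. The probe accessions, 20904 of RefSeq type, were named through the RefSeq table of GRCr8, which matched 17512, and the newer of 2 array annotations was used (1819 spots differ). Promoters and motifs were read with Biopython 1.88 in Python 3.11.15. The members and lists were chosen with earlier results of these data known. Of each list, the 2 largest rises and 2 largest falls on the brightest probe among genes called and above background on all 6 arrays were named, with the 3 genes most like Reg3a. The fit was first tested on simulated data. The number of arrays, 3 per group, limits the precision. Same-numbered arrays of the 2 groups did not deviate together (r between -0.05 and 0.02), so they were not paired.

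The alternatives comprised other scalings (quantile, median, none), normexp background correction (offset 50, on the median signal) with quantile normalization, other filters on dim probes, the deposited table, the study's one-way analysis of variance, a replicate block, the mean over probes of a gene and each array left out. Normexp scaled to the 75th percentile was added after seeing the data.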

Additional observations from a re-analysis of the deposited data

How the results depend on the processing

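The members' calls depended most on the scaling and on whose group labels were used. By its own labels the deposited table turned the sign of Reg3a (-3.07), Reg3b (1.30), Reg3g (1.59), Lcn2 (2.75), Pla2g2a (1.13) and Mmp7 (1.15), and called Lyz2 (-0.52). The exchanged labels account for the sign in the table, and quantile normalization by the scanner labels called Lyz2 as well, at 0.52. Without scaling between arrays, Reg3a was called (5.11), Reg3b (-0.75) and Reg3g (-0.86) lost their calls, the signs of Lyz2 (1.76), Pla2g2a (0.16) and Mmp7 (0.51) turned, and 3 members were called in place of 5. Quantile normalization turned Lyz2 (0.52), ended the call of Reg3g (-1.64) and left 9 other defence genes called in place of 14, and 9 were called in the table. Normexp with quantile normalization turned Lyz2 (0.50) and ended the call of Reg3g (-1.66). Normexp with the 75th percentile turned Lyz2 (0.47) and ended the calls of Reg3b (-2.04), Reg3g (-2.08), Pla2g2a (-1.15) and Mmp7 (-0.75), leaving 1 member, 2 other defence genes and 1752 probes called. Median centring called Lyz2 (-0.29), and the one-way analysis of variance ended the call of Reg3g (-2.70). The cause of these shifts was not tested.
With 1 array left out, the log2 fold change ranged from 1.31 to 4.25 for Reg3a, from -3.04 to -2.19 for Reg3b, from -3.69 to -2.06 for Reg3g, from -2.89 to -2.48 for Lcn2, from -0.12 to -0.06 for Lyz2, from -1.92 to -1.54 for Pla2g2a and from -1.56 to -1.18 for Mmp7. Between 4 and 5 members, 13 and 15 other defence genes, and 21445 and 22818 probes were then called. The replicate number as a block, which the arrays did not bear out as a pairing, called 22215 probes against 23206 without it and changed no call of a member. Of 168 values under an alternative, 132 kept their direction and call or stayed within 1.5 times of a count. A fit with the slide as block could not be made, since each slide holds 1 group. With 3 arrays a group, on 1 slide each, a difference between slides has the same form as a difference between groups, and Defa5, not well above background, has bounds only.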
